A study of Mus musculus with 6 samples.

Results

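The miR-130/miR-301 and miR-148/miR-152 families were examined in small RNA-seq libraries of the embryonic mouse brain. Members were the 10 mature miRNAs mmu-miR-130a-3p, mmu-miR-130b-3p, mmu-miR-130b-5p, mmu-miR-301a-3p, mmu-miR-301b-3p, mmu-miR-148a-3p, mmu-miR-148a-5p, mmu-miR-148b-3p, mmu-miR-148b-5p and mmu-miR-152-3p, taken by exact name (mmu, for mouse, is left out below) from the 1915 mature miRNAs listed for each library. The 6 libraries, 3 of each sex, held RNA of whole brains that were dissected at E15.5 from C57BL/6 wild-type embryos, with no treatment named. Embryos were sexed by the presence or absence of testicular cords, and each library pooled the RNA of 2 to 3 individuals, so that pools and not embryos are the replicates. The comparison of interest was that between male and female brains. Where 3 values are given for a sex, they are those of libraries 1, 2 and 3 in that order.

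A miRNA precursor is a hairpin whose 2 sides, the 5p and 3p arms, can each yield a mature miRNA, and the more abundant arm is usually called the guide. Bases 2 to 8 of the mature miRNA, the seed, pair with target mRNAs, so miRNAs that share a seed form a family. In the miR-130/miR-301 family, miR-130a is known from endothelial cells and blood vessel growth, and miR-301a from NF-kB signalling through its target Nkrf. The miR-148/miR-152 family is known for repressing the DNA methyltransferase Dnmt1, and miR-148a is among the most abundant miRNAs of liver.

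The sequences of the 3p members are shown because the families were defined by them. RefSeq (GRCm38.p6) held the mature sequence of 9 of the 10 members, the exception being miR-301b-3p. Capitals mark the seed.
miR-130a-3p: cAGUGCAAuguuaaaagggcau
miR-130b-3p: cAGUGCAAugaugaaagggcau
miR-301a-3p: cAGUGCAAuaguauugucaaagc
miR-148a-3p: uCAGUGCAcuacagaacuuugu
miR-148b-3p: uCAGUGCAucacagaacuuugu
miR-152-3p: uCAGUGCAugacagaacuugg

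The seeds of both families are offset by 1 base. The 7 letters CAGUGCA stood at bases 1 to 7 of miR-130a-3p, miR-130b-3p and miR-301a-3p and at bases 2 to 8 of the 3 miR-148/miR-152 members. These letters were found anywhere in 17 of the 1623 mature miRNAs with a sequence, or 1.05%, and within bases 1 to 8 in 10 of them. Outside the seed, miR-148a-3p and miR-148b-3p differed at 2 positions, 9 and 10. miR-130a-3p and miR-130b-3p also differed at 2 positions, 11 and 13, and miR-148b-3p and miR-152-3p at positions 10 and 20 of the bases both have. miR-301a-3p differed from miR-130a-3p at 10 positions. A read with a sequencing error at 1 of a pair of differing bases cannot be assigned with certainty, so the counts of these close pairs carry that uncertainty.

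The 5p members come from the other side of the hairpins and have other seeds. They are shown because 2 of them share a seed that their 3p arms do not have.
miR-130b-5p: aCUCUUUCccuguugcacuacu
miR-148a-5p: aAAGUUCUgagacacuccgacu
miR-148b-5p: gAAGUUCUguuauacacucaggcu

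The members come from 7 precursors, located on mm9 (NCBIM37, GENCODE vM1). Mir130b lies on chromosome 16 from 17124154 to 17124235 and Mir301b from 17124493 to 17124589, both on the reverse strand. These neighbours are 258 bases apart in an intron of 2610318N02Rik. Mir301, the precursor of miR-301a, lies on chromosome 11 from 86926506 to 86926591, in an intron of Fam33a. Mir148b lies on chromosome 15 from 103115556 to 103115652 in an intron of Copz1, and Mir152 on chromosome 11 from 96711707 to 96711779 in an intron of Copz2. Copz1 and Copz2 encode paralogous subunits of the COPI vesicle coat. Mir130a (chromosome 2, 84581272 to 84581335) and Mir148a (chromosome 6, 51219811 to 51219909) lie in no annotated gene.

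Between 14802675 and 59362011 reads were counted on miRNAs per library, and 660 to 915 miRNAs had at least 1 read. Female library 2 stood apart, with the highest total and the fewest miRNAs detected, and results that rest on it are given with and without it. Levels are CPM, reads divided by the library's total and scaled to a common total (counts-per-million). The neural miRNAs miR-9-5p, miR-124-3p and miR-128-3p summed to 193094.1 to 211713.2 CPM in females and 162351.3 to 187853.1 in males, so the labelled tissue carried its defining miRNAs, at a lower sum in each male than in each female library. All 3 had negative log2 fold changes, from -0.56 to -0.10, and edgeR called 0 of 3, with 1 at an unadjusted p below 0.05. Lists for other tissues also differed between the sexes. All 4 skeletal muscle miRNAs, 5 of 6 epithelial miRNAs and all 4 mesenchymal miRNAs passed the test with higher levels in males. The muscle list summed to 388.1 to 1180.1 CPM in females and 5497.5 to 6138.8 in males, the epithelial list to 428.5 to 1133.1 against 7989.5 to 8283.7, and the mesenchymal list to 4459.5 to 12438.4 against 19183.5 to 22960.0. Of the other lists, 0 of 2 smooth muscle miRNAs were called in edgeR, both with an unadjusted p below 0.05. Among red blood cell miRNAs 1 of 3, miR-486a-5p, was called, as higher in males (log2 fold change 0.805). The log2 fold change of miR-144-3p was -0.966 (standard error 1.132, edgeR adjusted p = 0.703). That of miR-451a was 0.181 (edgeR adjusted p = 0.869). The red blood cell list summed to 646.2 to 1354.4 CPM in females and 1595.3 to 1971.7 in males. No list summed to 0, and the part of these tissues in the results below was not tested.

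All 10 members passed the filter of at least 10 reads summed over the libraries. The most abundant was miR-148b-3p, with a mean of 3270.2 CPM over the 6 libraries, 51st of all miRNAs. It was followed by miR-130b-5p (1650.1 CPM), miR-148a-3p (926.5), miR-152-3p (423.0), miR-130b-3p (348.2) and miR-130a-3p (253.7). The 4 lowest were miR-301b-3p (43.8 CPM), miR-301a-3p (23.5), miR-148a-5p (15.1) and miR-148b-5p (8.79). Only 2 steps in this order separated the libraries completely, that from miR-148a-3p to miR-152-3p and that from miR-130a-3p to miR-301b-3p. At every other step the ranges of the neighbours overlapped, and miR-301a-3p lay above miR-148a-5p in 3 of 6 libraries. Efficiency of ligation differs between miRNAs, so levels of different miRNAs are compared as reads only.

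**Figure D1:**
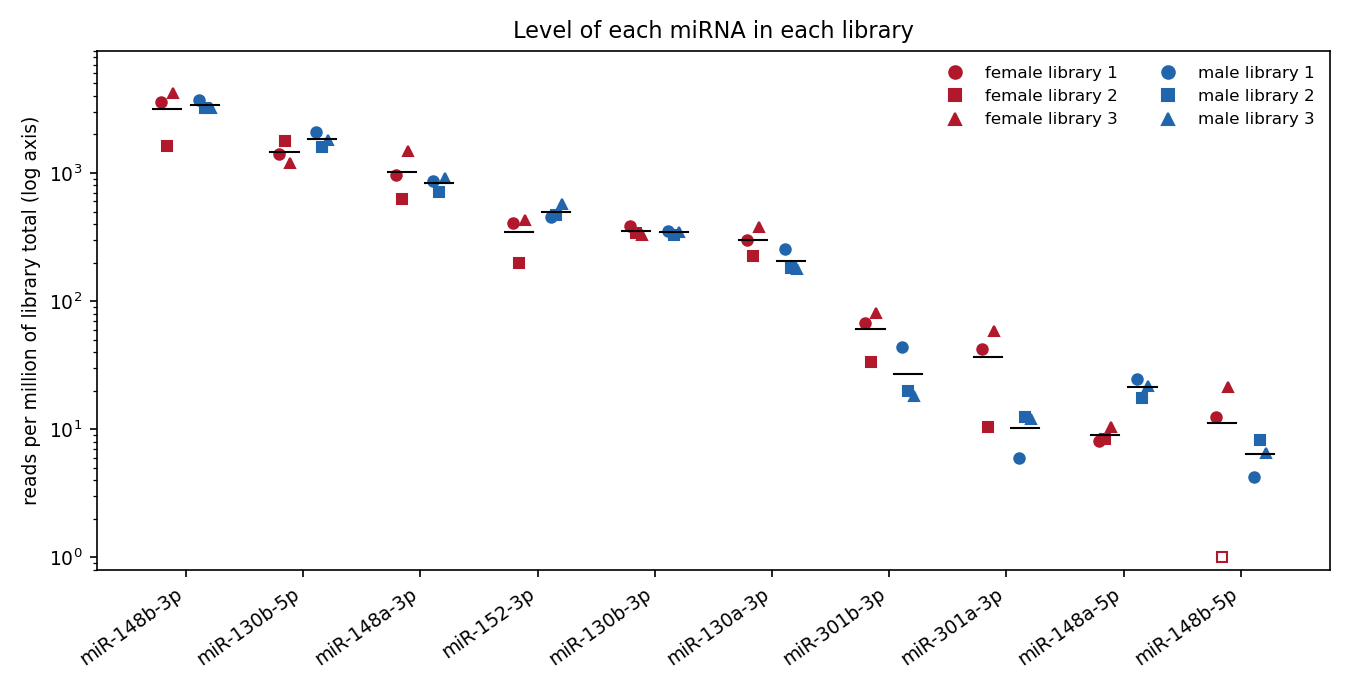
CPM of the library total (log axis) of the 10 members in each of the 6 libraries, with females in red, males in blue, a symbol for each library number and a black bar for the mean of each sex. The open square stands for 0 reads of miR-148b-5p in female library 2, drawn at the foot of the axis. Female library 2 is the lowest library for miR-148b-3p and miR-152-3p, and only miR-148a-5p and miR-152-3p have all males above all females.

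Differential expression was tested in edgeR (quasi-likelihood F test, p adjusted by Benjamini-Hochberg) over the 1120 miRNAs past the filter, and log2 fold changes are male over female, each with its standard error (SE). Among the members, 3 of 10 had an adjusted p below 0.05 and all 3 were female-biased, namely miR-301a-3p, miR-301b-3p and miR-130a-3p. Of all 1120 miRNAs, 8.48% were called, 5.27% as female-biased and 3.21% as male-biased. Of the 5 members of the miR-148/miR-152 family, edgeR called 0, with 1 of them, miR-148a-5p, at an unadjusted p below 0.05. DESeq2 called 4 of the 10 members, the 3 named and, as male-biased, miR-148a-5p, against 11.8% of all miRNAs tested. DESeq2 with 1 factor of unwanted variation (RUVr) called 5 of the 10, the same 3 and, as male-biased, miR-148a-5p and miR-152-3p, against 22.9% of all miRNAs tested. The median log2 fold change was -0.29 over the members and -0.02 over all miRNAs tested. With single libraries left out the members' median ran from -0.46 (without female library 2) to -0.02 (without female library 3), and with the GC offset it was -0.07 against -0.11 over all. Without adjustment, 4 of the 10 members had a p below 0.05, against 18.4% of all miRNAs tested. Leaving out female library 2 raised the members called in edgeR to 6 of 10, 5 of them female-biased, against 18.3% of the miRNAs tested in that fit. With any other library left out, 0 or 1 members were called, against 2.73% to 8.5% of the miRNAs tested in those fits. Without female library 3 and without male library 1, 0 members were called, against 5.66% and 2.73% of all. In these fits 5 and 3 members had an unadjusted p below 0.05. Since whole brains were sequenced, fewer cells of a type and less RNA per cell cannot be told apart.

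**Figure D2:**
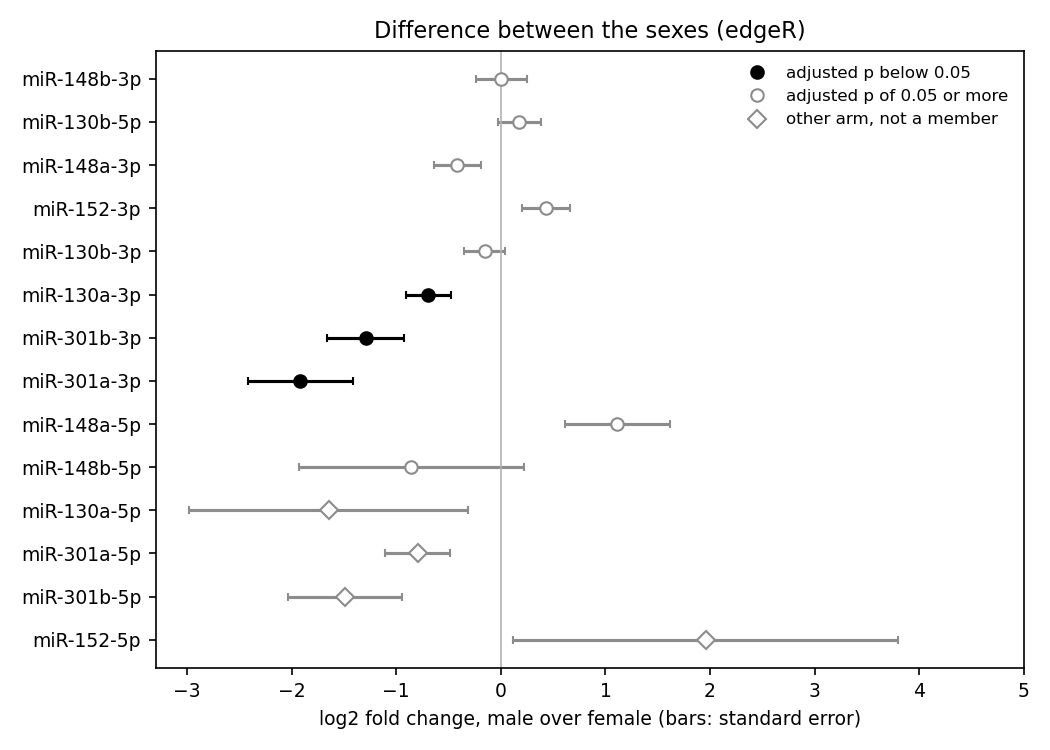
Log2 fold change, male over female, of the 10 members (circles) and of the other 4 arms of their precursors (diamonds) in edgeR, with bars for 1 standard error. Filled symbols have an adjusted p below 0.05 and are miR-130a-3p, miR-301b-3p and miR-301a-3p, which all lie to the left of 0.

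In the miR-130/miR-301 family, the largest difference was that of miR-301a-3p. It was measured at 41.95, 10.39 and 58.38 CPM for the female pools, against 5.99, 12.55 and 11.98 CPM for the male ones. Female libraries 1 and 3 lay above every male library, whereas female library 2 lay among the males. Females averaged 36.9 ± 24.4 CPM (SD, n = 3) against 10.2 ± 3.63 (SD, n = 3) for males. The log2 fold change was -1.92 (SE 0.50, edgeR adjusted p = 0.0134), which is 3.78-fold higher in females. It rested on 112 to 2090 reads per library. Leaving out single libraries gave log2 fold changes from -2.34 to -1.42. Of these 6 fits 4 were past the threshold, the exceptions being those without female library 3 (adjusted p = 0.248) and without male library 1 (0.297), while without female library 2 the adjusted p was 6.07e-10.

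miR-301b-3p, from the hairpin next to Mir130b, was measured at 67.15, 33.78 and 80.52 CPM for the female pools, against 43.73, 19.88 and 18.03 CPM for the male ones. The sexes overlapped through female library 2 and male library 1. Males averaged 27.2 ± 14.3 CPM (SD, n = 3) against 60.5 ± 24.1 (SD, n = 3) for females. The log2 fold change was -1.29 (SE 0.37, edgeR adjusted p = 0.0272). When single libraries were left out the call held in 1 of 6 fits, that without female library 2 (adjusted p = 2.61e-06), and in the other 5 the adjusted p was between 0.0716 and 0.202. It was also lost with library size in place of TMM, where the adjusted p was 0.113.

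miR-130a-3p was measured at 300.2, 225.6 and 382.4 CPM for the female pools, against 255.0, 181.2 and 177.9 CPM for the male ones. Male library 1 lay above female library 2, and the other libraries separated by sex. Females averaged 302.7 ± 78.4 CPM (SD, n = 3) against 204.7 ± 43.6 (SD, n = 3) for males. The log2 fold change was -0.69 (SE 0.21, edgeR adjusted p = 0.0443). The call was held in the fit without female library 2 (adjusted p = 0.000627) and lost in the other 5 that each left out a library, where the adjusted p lay between 0.0883 and 0.247. It was also lost with library size (0.184) or upper quartile (0.0966) in place of TMM and without the filter (0.0933). With an offset for the GC content of the mature sequence in each library, the log2 fold change was -0.36 and the adjusted p 0.419. The GC content of miR-130a-3p is 40.9%, below the median of 47.8% over abundant miRNAs. With the same offset miR-301a-3p, whose GC content is 39.1%, had a log2 fold change of -1.41 and an adjusted p of 0.0471. Both endothelial miRNAs of the marker lists, the arms of miR-126a, were also called as female-biased. They summed to 3863.7 to 8145.9 CPM in females and 2690.3 to 3899.8 in males, with the highest value in female library 3. That library was highest for miR-130a-3p, but also for miR-301a-3p, miR-301b-3p, miR-148a-3p, miR-148b-3p and miR-148b-5p. It was highest for the smooth muscle and liver lists as well. The part of endothelium in the result for miR-130a-3p was not tested.

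miR-130b-3p was measured at 386.9, 339.2 and 328.1 CPM for the female pools, against 354.7, 330.9 and 349.2 for the male ones. The sexes overlapped, and the log2 fold change was -0.15 (SE 0.19, edgeR adjusted p = 0.732). Its other arm, miR-130b-5p, was measured at 1406.2, 1776.6 and 1208.0 CPM for the female pools, against 2103.8, 1585.5 and 1820.5 for the male ones. The log2 fold change of miR-130b-5p was 0.18 (SE 0.21, edgeR adjusted p = 0.706).

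The miR-130b-3p and miR-130a-3p reads made up most of the family. miR-130b-3p held 47.6% ± 8.58 (SD, n = 3) of the family's 3p reads for females and 59.1% ± 4.68 (SD, n = 3) for males. miR-130a-3p held 39.9% ± 4.43 (SD, n = 3) and 34.6% ± 3.57 (SD, n = 3), miR-301b-3p 7.82% ± 2.03 (SD, n = 3) and 4.51% ± 1.85 (SD, n = 3), and miR-301a-3p 4.62% ± 2.64 (SD, n = 3) and 1.79% ± 0.76 (SD, n = 3). The 4 members together were 609.0 to 849.4 CPM in females and 544.6 to 659.5 CPM in males. The 3 called members together thus held fewer of the family's 3p reads than miR-130b-3p alone in each male library and in female library 2. In female libraries 1 and 3 they held more, where miR-130b-3p had 48.59% and 38.62%.

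**Figure D3:**
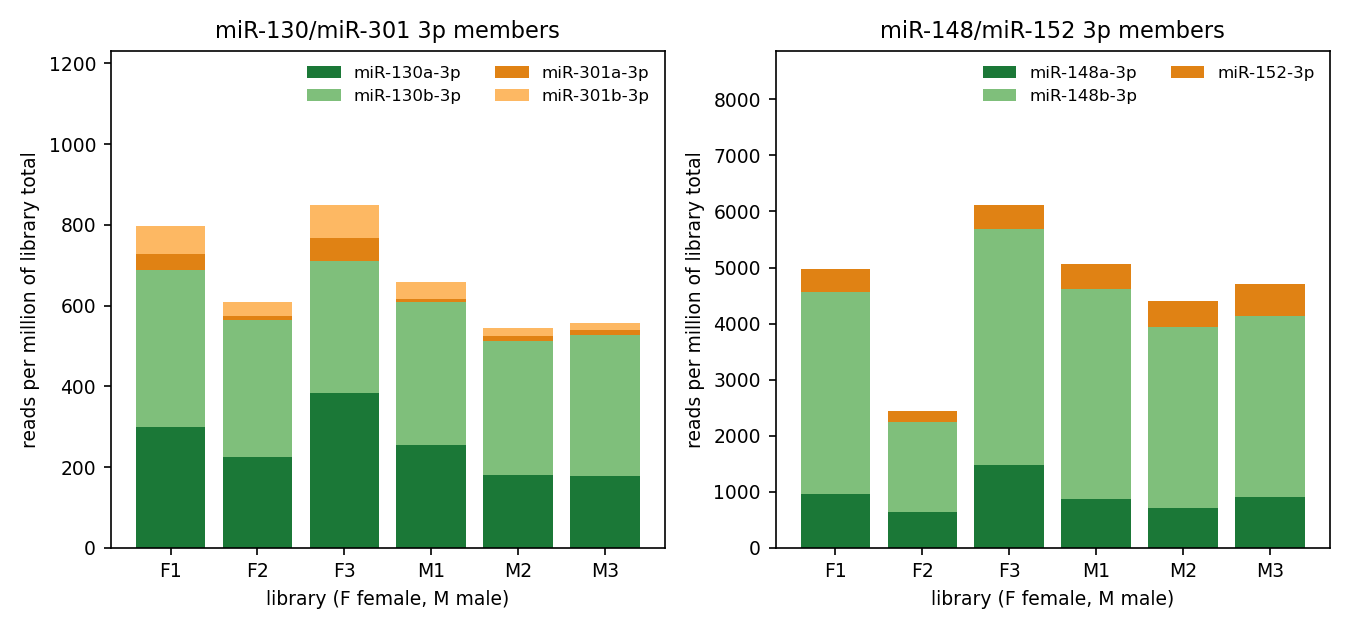
CPM of the library total of the 3p members of each family, stacked by miRNA in each library, with separate axes for the 2 families. The miR-130/miR-301 sum is 544.6 to 659.5 in males and 609.0 to 849.4 in females, and the miR-148/miR-152 sum is lowest in female library 2, at 2445.4.

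In the miR-148/miR-152 family, miR-148b-3p was measured at 3608.6, 1615.2 and 4208.3 CPM for the female pools, against 3747.6, 3216.8 and 3225.0 CPM for the male ones. Female library 2 was the lowest and the sexes overlapped. The log2 fold change was 0.0048 (SE 0.25, edgeR adjusted p = 0.998), and its sign changed with the setting. miR-148a-3p was measured at 961.5, 630.7 and 1476.5 CPM for the female pools, against 865.7, 714.2 and 910.2 for the male ones, again with female library 2 lowest. Its log2 fold change was -0.42 (SE 0.23, edgeR adjusted p = 0.346). It was -0.63 (edgeR adjusted p = 0.00933) without female library 2 and -0.07 (0.886) without female library 3. With the GC offset the log2 fold change was -0.06, at a GC content of 40.9%. Of the liver list, 1 of 3 miRNAs was called, miR-194-5p, as female-biased (log2 fold change -0.82). miR-192-5p had a log2 fold change of -0.66 (edgeR unadjusted p = 0.0284, adjusted p = 0.185). In contrast, the hepatocyte miRNA miR-122-5p had a log2 fold change of 0.39 (edgeR adjusted p = 0.823). That list summed to 346.5 to 681.2 CPM in females and 289.8 to 319.5 in males, with female library 3 again highest, and its part in the level of miR-148a-3p was not tested.

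miR-152-3p was measured at 409.0, 199.6 and 430.1 CPM for the female pools, against 456.3, 473.6 and 569.4 CPM for the male ones. Each male library lay above each female library in CPM of the library total, but not when scaled by TMM. The log2 fold change was 0.43 (SE 0.23, edgeR adjusted p = 0.344), and it was 0.19 without female library 2. miR-148a-5p, the low arm of its hairpin, was measured at 8.04, 8.41 and 10.39 CPM for the female pools, against 24.68, 17.53 and 21.84 for the male ones. Here too the sexes did not overlap in CPM of the library total, and the log2 fold change was 1.11 (SE 0.50, edgeR adjusted p = 0.215). DESeq2 gave miR-148a-5p an adjusted p of 0.0345. In CPM of the library total, the sexes thus did not overlap for 2 of 10 members, both higher in males. Of all miRNAs tested, 23.9% did not overlap, 15.4% with males and 8.57% with females higher. Without female library 2, 8 of 10 did not overlap, 5 of them higher in females, against 39.8% of the miRNAs tested, 19.1% with females and 20.7% with males higher. Fewer libraries are more easily separated, and overlap was not counted with any other library left out. These counts also depend on the scaling. TMM factors ran from 0.883 (female library 2) to 1.145 (male library 1). When CPM were scaled by them, miR-152-3p overlapped and miR-130a-3p separated, with females higher. Overlap over all miRNAs was not counted with TMM.

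miR-148b-5p had 183, 0 and 761 reads for the female pools, against 80, 364 and 155 for the male ones. The 0 in the deepest library, where 3 reads would be 0.0505 CPM, stands against 4.28 to 21.26 CPM in the other 5. Its log2 fold change was -0.86 (SE 1.08, edgeR adjusted p = 0.732), and its sign changed with the setting. It was called as female-biased without female library 2 (log2 fold change -1.44, edgeR adjusted p = 0.0117) and as male-biased with 1 RUVr factor (1.495, edgeR adjusted p = 0.042). This member shares its seed with miR-148a-5p.

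The composition of the miR-148/miR-152 family was led by miR-148b-3p, with 69.1% ± 3.22 (SD, n = 3) of the family's 3p reads for females and 71.8% ± 2.88 (SD, n = 3) for males. miR-148a-3p held 23.1% ± 3.37 (SD, n = 3) for females and 17.6% ± 1.62 (SD, n = 3) for males. miR-152-3p held 7.80% ± 0.67 (SD, n = 3) and 10.6% ± 1.55 (SD, n = 3). The family's 3p reads outnumbered those of miR-130/miR-301, with ratios of 6.25, 4.02 and 7.20 for the female pools, against 7.69, 8.09 and 8.44 for the male ones, so that each male ratio lay above each female ratio.

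Ratios within a library do not depend on depth or scaling, but no GC offset was applied to them. Of the 13 ratios of arms and paralogs considered, 10 had at least 10 reads for both miRNAs in every library and were compared between the sexes with a two-sided exact permutation test, for which 3 libraries against 3 cannot give a p below 0.1. Each of the 10 adjusted p values was at or above 0.286.

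The arm with more reads differed between precursors of the same family. For miR-130b the 5p arm outnumbered the 3p arm in every library, with 5p to 3p ratios of 3.63, 5.24 and 3.68 for the female pools, against 5.93, 4.79 and 5.21 for the male ones. For miR-301a the 5p arm was also in excess, with 5p to 3p ratios of 2.45, 4.57 and 2.27 for the female pools, against 8.70, 4.23 and 5.79 for the male ones. In miR-301b, the neighbour of miR-130b, the order was the opposite, and the 3p arm outnumbered the 5p arm, with 3p to 5p ratios of 4.67, 1.30 and 4.16 for the female pools, against 7.29, 1.86 and 2.82 for the male ones. So the family's seed AGUGCAA stood on the less abundant arm of miR-130b and miR-301a.

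The miR-148a 3p arm outnumbered its 5p arm, with 3p to 5p ratios of 120, 75.0 and 142 for the female pools, against 35.1, 40.7 and 41.7 for the male ones, without overlap. The difference in log2 ratio was -1.47 (exact permutation test, p = 0.1, the smallest possible, and 0.286 adjusted over the 10 ratios). The difference in log2 ratio for miR-301a was -1.02 (exact permutation p = 0.2) and for miR-130b -0.36 (exact permutation p = 0.3). In both, the overlap came from female library 2. Among paralogs, miR-148a-3p reads were 2.35, 3.16 and 3.43 times those of miR-152-3p for the female pools, against 1.90, 1.51 and 1.60 times for the male ones, also without overlap (difference in log2 ratio -0.83, exact permutation p = 0.1, 0.286 adjusted). With the GC offset in edgeR, the log2 fold change of miR-148a-3p was -0.06, against -0.417 without it. That of miR-148a-5p was 1.185 against 1.114, and that of miR-152-3p 0.418 against 0.429. The ratio of the neighbours miR-301b-3p and miR-130b-3p was 0.174, 0.0996 and 0.245 for the female pools, against 0.123, 0.0601 and 0.0516 for the male ones, with an overlap between female library 2 and male library 1 (exact permutation p = 0.2).

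**Figure D4:**
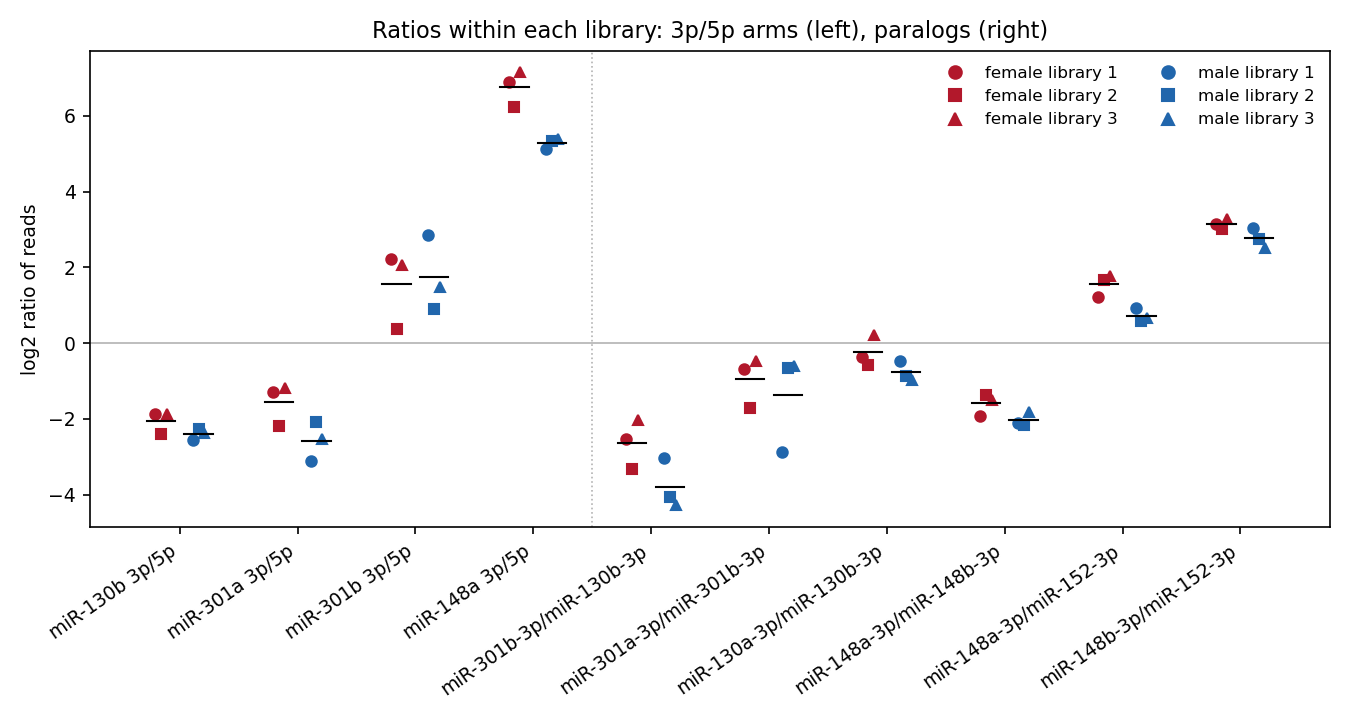
Log2 ratio of reads in each library for 4 pairs of arms (left of the dotted line) and 6 pairs of paralogs, with females in red, males in blue and a black bar for the mean of each sex. Values above 0 mean more reads of the first arm or miRNA named, and the sexes do not overlap for miR-148a 3p/5p and miR-148a-3p/miR-152-3p.

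The other arms of the same precursors were tested as well, and 0 of 4 were called in edgeR, against 8.48% of all miRNAs tested. There 2 of 4, miR-301a-5p and miR-301b-5p, had an unadjusted p below 0.05, against 18.4% of all. DESeq2, which called 11.8% of all, called miR-301b-5p (adjusted p = 0.0266). miR-301a-5p was measured at 102.7, 47.45 and 132.6 CPM for the female pools, against 52.13, 53.03 and 69.32 for the male ones, with a log2 fold change of -0.80 (adjusted p = 0.140). miR-301b-5p was measured at 14.39, 25.89 and 19.36 CPM for the female pools, against 5.99, 10.70 and 6.39 for the male ones. Each female library lay above each male library, and the log2 fold change was -1.49 (adjusted p = 0.106). Both arms of miR-301a and of miR-301b therefore had negative log2 fold changes. DESeq2 with 1 RUVr factor called 3 of the 4, against 22.9% of all. These were miR-301a-5p (adjusted p = 0.00551), miR-301b-5p (0.0179) and miR-152-5p (0.0184), the last of which had 0 to 114 reads per library. In edgeR the log2 fold change of miR-152-5p was 1.96 (SE 1.84, adjusted p = 0.584). That of miR-130a-5p was -1.65 (SE 1.33, edgeR adjusted p = 0.491), with 0 reads in male library 1 and 50 to 311 in the others. A search of the RefSeq sequences found 4 other listed miRNAs with the seed AGUGCAA, miR-130c, miR-721, miR-6341 and miR-6389. All 4 had 0 reads in all 6 libraries, where 3 reads would be 0.0505 to 0.203 CPM.

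The miRNAs whose pattern over the 6 libraries was most like that of a member were named by the root mean square difference of mean-centred log2 CPM, among 552 others with a mean of at least 100 reads. For miR-301a-3p the nearest was miR-19a-3p, of the miR-17-92 cluster, at 0.429 log2 units, against a median of 1.24 over all 552. For miR-301b-3p the nearest was miR-592-5p (0.295, median 0.922). For miR-130a-3p they were miR-181c-5p (0.079), miR-20a-5p (0.103) and miR-143-3p (0.111), against a median of 0.579. miR-143-3p is on the smooth muscle list, whose 2 miRNAs had log2 fold changes of opposite sign, -0.61 for miR-143-3p and 0.49 for miR-145a-5p. The nearest to miR-130b-3p was miR-103-3p (0.084), to miR-148a-3p miR-17-5p (0.124), to miR-148b-3p miR-449a-5p (0.051) and to miR-152-3p miR-350-5p (0.078). Over the 7 members compared, all of them 3p arms, no member was among the 3 nearest of another.

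**Figure D5:**
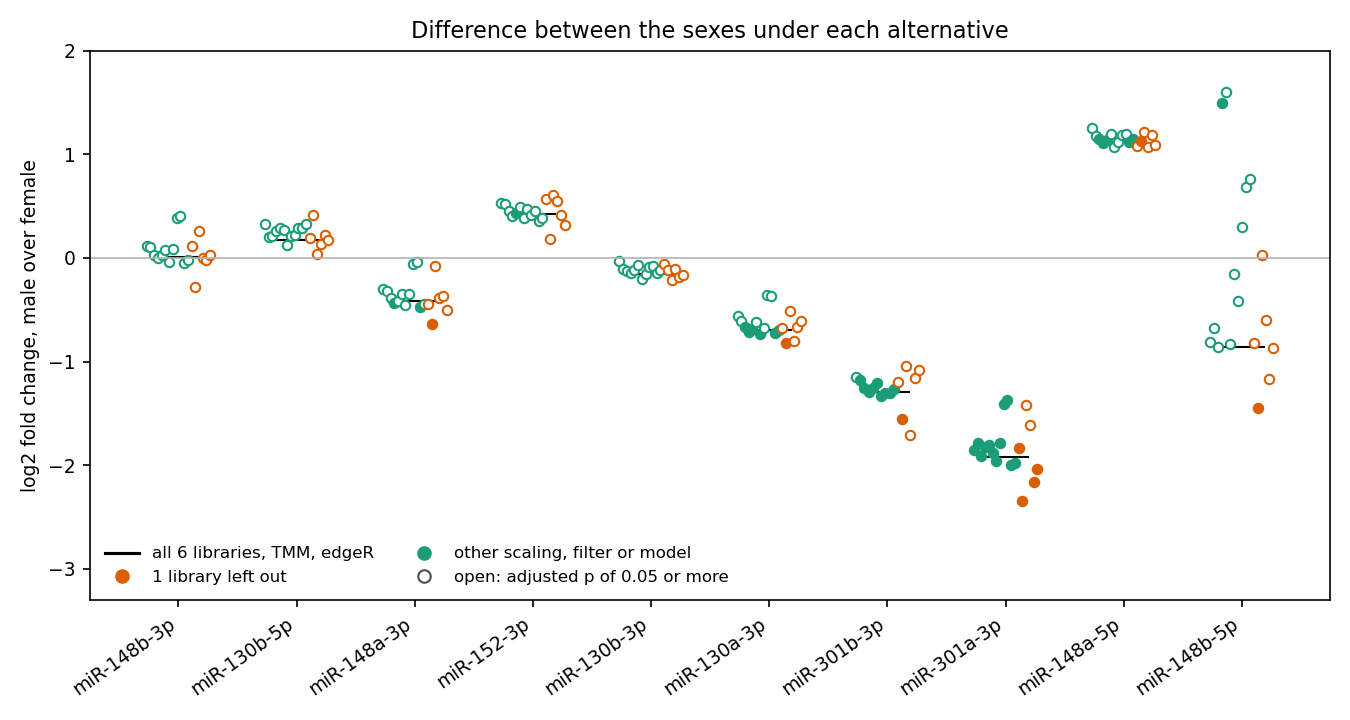
Log2 fold change, male over female, of the 10 members with all 6 libraries in edgeR (black line), with 1 library left out (orange) and under another scaling, filter or model (green), where filled symbols have an adjusted p below 0.05. miR-301a-3p stays between -2.34 and -1.37 and is filled in 16 of 18 alternatives, while miR-148b-5p lies on both sides of 0.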

How the data were processed

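The authors removed adaptors with cutadapt 1.15 and, in the miRDeep2 workflow, mapped reads with Bowtie 1.2.1 against miRBase and mm9. The deposited values are raw counts of reads for each mature miRNA, without normalization. No molecular identifiers are named, so counts can include copies of a molecule, floors cover counting error only, and p-values measure the spread between pools. The members and lists were chosen with earlier results of these data known.

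R 4.3.3 was used with edgeR 4.0.16 and DESeq2 1.42.0. miRNAs with at least 10 reads over the 6 libraries were kept, which left 1120 of 1915, scaled by TMM and tested for sex with edgeR's quasi-likelihood test (Benjamini-Hochberg, threshold 0.05). SE is the size of the log2 fold change over the root of F. Named miRNAs were the members, the other arms of their precursors, miRNAs with a 3p member's seed, marker lists and the 3 miRNAs nearest in pattern. Log2 CPM for the pattern had a prior count of 2. Ratios had no pseudocount, and two-sided exact permutation tests were used.

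Alternatives were library size, upper quartile, DESeq2, 1 RUVr factor, other filters, a replicate block, a GC offset (loess, span 0.75) and each library left out. RUVr was written out from deviance residuals. RUVr factors from a common dispersion were added after the data were seen. Mature sequences were at hand for 474 of 553 abundant miRNAs (85.7%, mean of 100 reads or more). The procedures were tested on counts simulated at a fixed dispersion, where edgeR recovered 72.5% of the planted changes and 2.79% of its calls were false. No GC effect, unwanted factor or outlying library was simulated, so these data cannot show how the procedures handle them.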

Additional observations from a re-analysis of the deposited data

How the results depend on the processing

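The 3 called members differ in how firmly they stand. miR-301a-3p was called in 16 of 18 alternatives, miR-301b-3p in 10 of 16 and miR-130a-3p in 7 of 18. These tallies include the RUVr fits, some of them added after the data were seen. All 3 were called in each RUVr fit, and those fits called 17.1% to 22.9% of all miRNAs tested. The other calls of miR-130a-3p were with DESeq2, with at least 10 reads in every library and without female library 2. All 3 kept a negative log2 fold change in every alternative run. With 3 pools per sex, low reads of miR-148b-5p, miR-152-5p and miR-130a-5p limit what can be said of them, and the causes of the changes below were not tested.

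Against 95 miRNAs called, 37.9% of them male-biased and 59 female-biased, and 3 members called, all female-biased, library size gave 39 female-biased miRNAs, a male-biased share of 56.2% and 1 member called, which was female-biased. DESeq2 called 132 miRNAs and 4 members, 1 of them male-biased. Without the filter the male-biased share was 50%. With 1 RUVr factor, edgeR called 228 miRNAs (52.2% male-biased, 109 female-biased) and 6 members, 2 of them male-biased, and DESeq2 called 257 (59.1% male-biased, 105 female-biased) and 5 members, 2 of them male-biased. With residuals from a common dispersion, a choice made after seeing the data, edgeR called 191 (49.2% male-biased, 97 female-biased) and 5 members, 1 of them male-biased, and DESeq2 called 220 (53.6% male-biased, 102 female-biased), 1 of its members male-biased. Over 6 ways of making the RUVr residuals, edgeR called 184 to 228 miRNAs and 4 to 6 members, and DESeq2 219 to 261 and 4 to 5. The median log2 fold change of all miRNAs tested was -0.015 with TMM and moved to 0.105 with library size, 0.266 and 0.292 with RUVr in edgeR and DESeq2, and -0.146 with at least 10 reads in every library. For the members alone, the median of -0.285 became 0.124 with the GC offset and replicate block.

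Leaving out each library gave 30 (male library 1) to 203 (female library 2) miRNAs called, with 37.5% to 46.7% male-biased and 16 to 116 female-biased. Members called ranged from 0 to 6, with 0 to 1 male-biased and 0 to 5 female-biased. edgeR called 0 members without female library 3, where 5 had an unadjusted p below 0.05, and 0 without male library 1, where 3 had. It called 6 without female library 2. Of all miRNAs tested in these fits, 5.66%, 2.73% and 18.3% were called.

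The sign of miR-148b-3p, at 0.0048, changed with RUVr in edgeR (-0.00025), with a common dispersion in edgeR (-0.049) and DESeq2 (-0.018), and with at least 10 reads in every library (-0.035), and ranged from -0.278 to 0.263 with a library left out. That of miR-148b-5p changed with RUVr in edgeR (1.495) and DESeq2 (1.601), with a common dispersion (0.684 and 0.766) and with the GC offset and replicate block (0.297), and ranged from -1.444 to 0.03 with a library left out. The mean level of miR-130b-3p in males was 330.1 CPM when scaled by TMM, against 345.0. The log2 ratio difference between the sexes for miR-301b 3p/5p, 0.198, ranged from -0.387 (without female library 2) to 0.627 with a library left out, and that for miR-301a-3p/miR-301b-3p, -0.426, from -0.818 to 0.321 (without male library 1).

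Deviations of pools with the same number had correlations of -0.102, 0.026 and 0.157 for libraries 1, 2 and 3. Those of pools with different numbers ran from -0.188 to 0.165. So few values cannot show whether the numbers pair samples. With the replicate block, 92 miRNAs and 2 members were called, and the adjusted p of miR-130a-3p was 0.0578 in edgeR. The GC offset could not be applied to miR-301b-3p, which is still 1 of the 2 members called in that fit.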
